A study of Mus musculus with 40 samples.

Results

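H19 and 8 further imprinted genes that act on growth were followed across brown adipose tissue of 40 mice. They are the noncoding RNAs H19 and Meg3, the secreted or membrane factors Igf2 and Dlk1, the signalling adaptor Grb10, the zinc finger factors Peg3 and Plagl1, the hydrolase Mest and the cell cycle inhibitor Cdkn1c. These 9 genes were taken from the 52636 genes of the count table by their Ensembl identifiers, and all 9 passed the filter on low counts that left 17079 genes. The set was selected on the H19 level, which was low at 5 d in mice given antibodies to Jag1 and Jag2, so the values of that comparison are a description without a test.

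An imprinted gene is read mainly from the copy of 1 parent. H19 and Igf2 are neighbours that share enhancers, H19 being read from the maternal and Igf2 from the paternal copy, and Dlk1 and Meg3 form a similar pair at another locus. Most of these genes are strongly expressed in the fetus and fall after birth. H19 is known to stay on in adult skeletal muscle, and Dlk1, a relative of the Notch ligands, is known as a marker of preadipocytes.

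The mice were male C57BL/6 animals of 10 to 12 weeks in the series' design text and up to 14 weeks in the labels' protocol. Control mice received 1 intraperitoneal dose of 40 mg/kg of an anti-ragweed antibody, an isotype control, and Jag antibody mice received antibodies that block the Notch ligands Jag1 and Jag2, at 20 mg/kg for each. Tissue was taken at 15 h, 5 d or 7 d, and a second pair of groups at 7 d also received thyroid hormone daily from day 2 (T4 at 1 ug/g with T3 at 0.05 ug/g). Each of the 8 groups held 5 mice, numbered 1 to 5 for control and 6 to 10 for Jag antibody. No allele was altered in any group.

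The libraries held 12217623 to 36511893 counts. Ucp1, the uncoupling protein that defines brown fat, was read in every library at 553 to 21290 CPM, which are counts per 1e+06 counts of the scaled library. Libraries differed in 2 ways that touch the members. The summed level of 8 genes of skeletal muscle fibres (among them the actin Acta1, the creatine kinase Ckm and the myosins Myh1 and Myh4) ran from 0.877 CPM to 175800 CPM and was over 1000 CPM in 15 libraries, including all 5 of the control mice at 5 d. The length slope, the slope of a library's log2 CPM relative to the other libraries on log2 exonic length, was -0.542 to -0.059 in control mice at 7 d and 0.041 to 0.247 in control mice with hormone, without overlap. It was under -0.25 in 4 libraries, which were control mice 2 and 5 at 5 d and control mice 2 and 4 at 7 d. These are bulk samples, so fewer cells of a type and less RNA per cell cannot be told apart.

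Sequences are shown for the products and start sites that the results below refer to. H19 is the host of the microRNA miR-675, whose mature forms (RefSeq, GRCm38.p6, chromosome 7, minus strand, 142577112 to 142577133 for the 5p form and 142577078 to 142577099 for the 3p form) are printed with the seed, bases 2 to 8, in capitals. The seeds differ. The Mir675 row of the table held 0 counts in all libraries, so no microRNA level is given.
mmu-miR-675-5p: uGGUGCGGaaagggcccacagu
mmu-miR-675-3p: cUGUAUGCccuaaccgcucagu
Promoter windows of 300 bases were found for 7 of the 9 members, 14 windows in all. The Peg3 and Meg3 windows held the cAMP response element TGACGTCA, which 1.79% of all 32851 windows of the RefSeq table held on either strand. The Peg3 window also held GGGGCCCC, a motif of the zinc finger factor Plagl1, found in 1.08% of windows. The 60 bases that hold these motifs are printed with the motifs in capitals. They begin 220 bases before the start for Peg3, where GGGGCCCC lies at 201 and TGACGTCA at 178 bases before the start. They begin 80 bases before the start for Meg3, where TGACGTCA lies at 57 bases before it.
Peg3, chr7:6730580-6730639, minus strand: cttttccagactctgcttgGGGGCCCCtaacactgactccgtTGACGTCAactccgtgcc
Meg3, chr12:109540916-109540975, plus strand: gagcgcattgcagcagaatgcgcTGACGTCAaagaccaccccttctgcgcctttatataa
Both windows are on GRCm38.p6. AGGTCA, a binding motif of nuclear receptors, was in 16.3% of windows and in 1 Igf2 and 1 Meg3 window. CAGCTG, an E-box of the MyoD type, was in 16.3% of windows and in 1 Mest window.

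The members differed widely in level. Per kilobase of exonic length, Cdkn1c had the highest median over the 40 mice at 5.77 CPM per kb, followed by Peg3 at 4.98, Grb10 at 2.36, Igf2 at 1.43, H19 at 1.07, Meg3 at 0.847, Mest at 0.505, Plagl1 at 0.252 and Dlk1 at 0.177. Neighbours in this order were not cleanly separated. Cdkn1c was above Peg3 in 22 of 40 mice, Igf2 above H19 in 21 and H19 above Meg3 in 20. The clearest step was from Mest to Plagl1, with Mest higher in 33 mice.

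**Figure D1:**
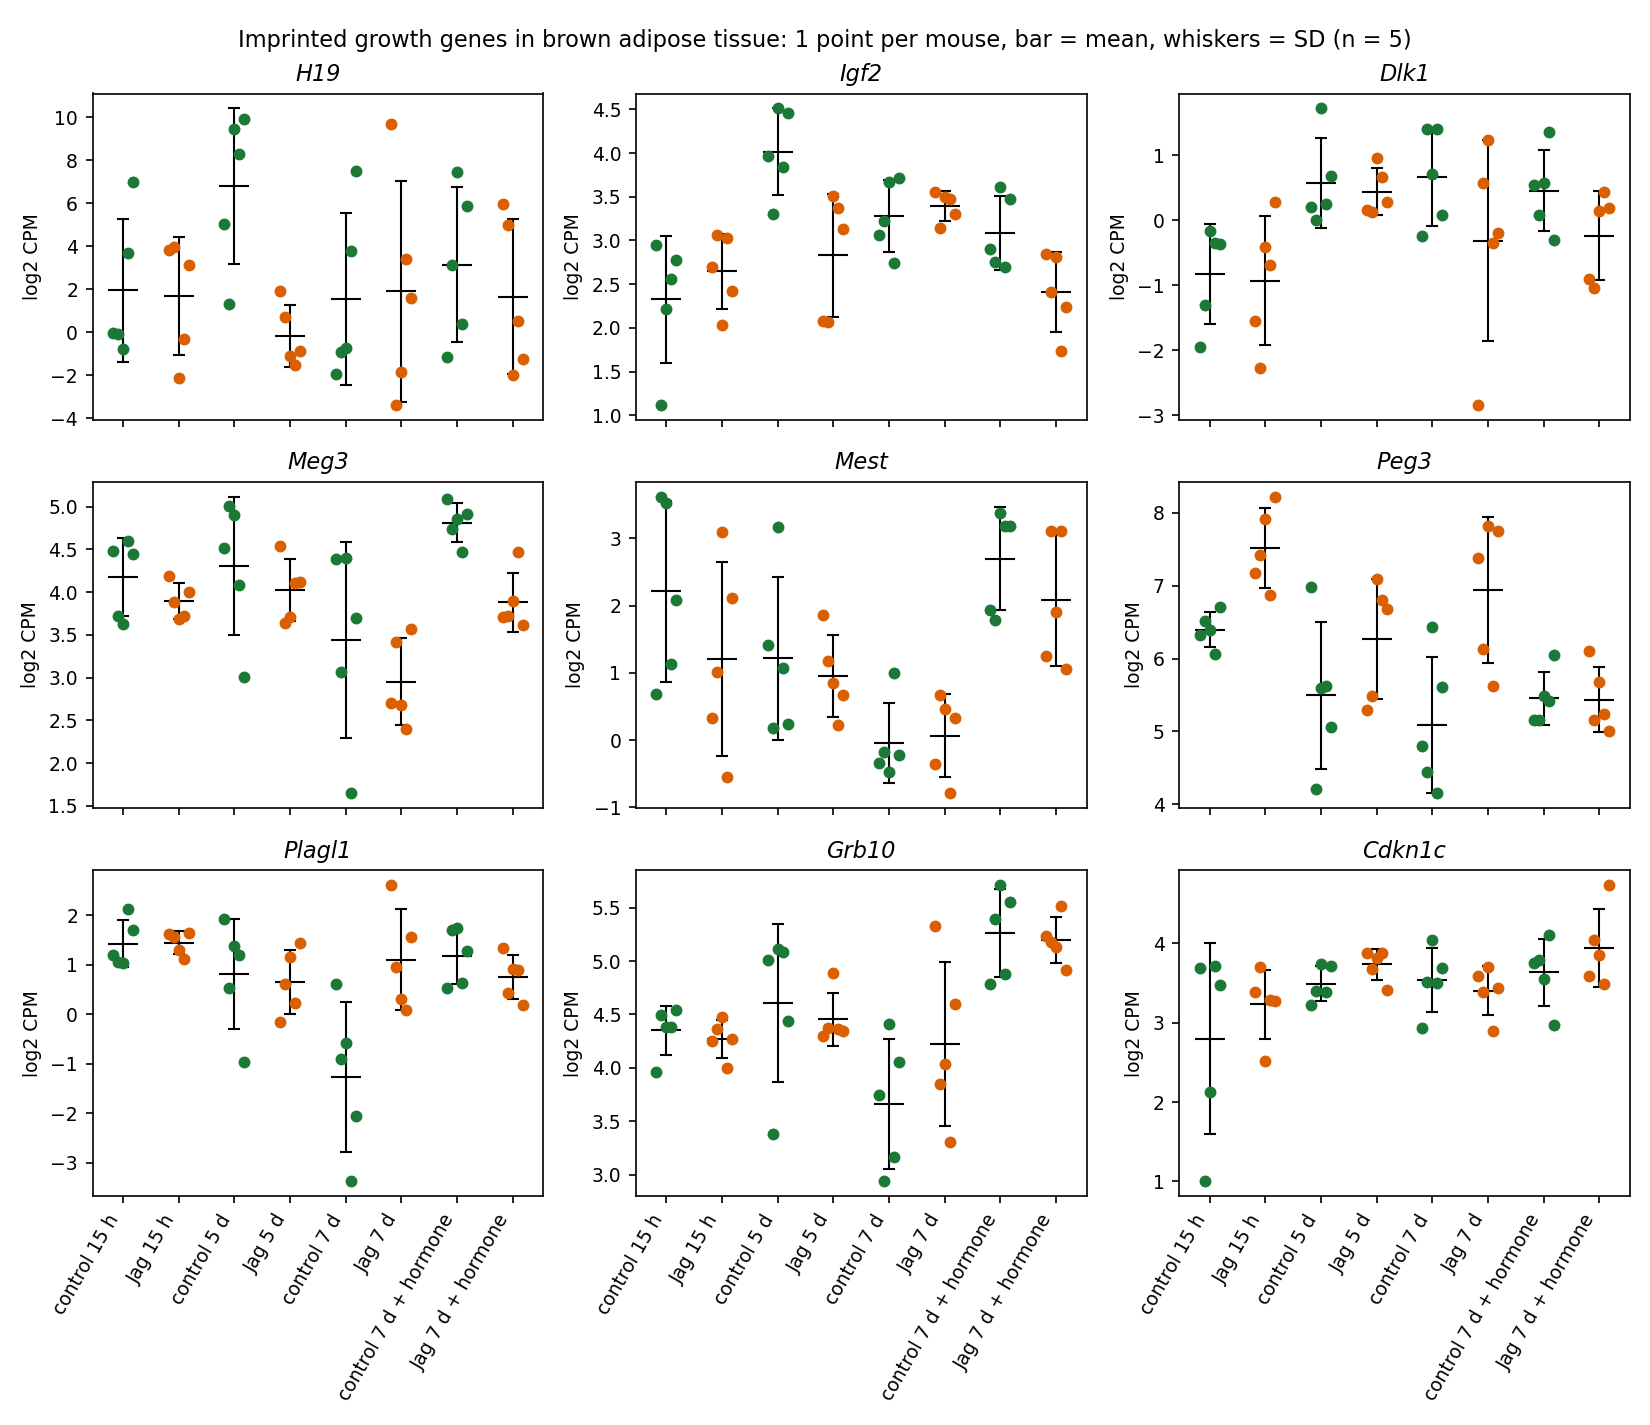
Expression of the 9 genes by group, as log2 CPM on the vertical axis of each panel, with 1 point per mouse, the mean as a bar and the SD as whiskers (5 mice per group). Green points are control mice and orange points Jag antibody mice. The SD over the 40 mice is 3.76 log2 units for H19, against 0.60 for Cdkn1c.

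H19 (ENSMUSG00000000031, chromosome 7, 142575529 to 142578143, minus strand, GENCODE M21 on GRCm38) was the most variable member. Its level ran from 0 counts to 963 CPM with a median of 2.63 CPM, and its SD over mice of 3.76 log2 units lay at the 99.7th percentile of the kept genes. Over the 30 mice outside 5 d, which did not enter the choice of genes, the SD was 3.50 and its percentile also 99.7. The library at 0 counts was Jag mouse 7 at 7 d, where 3 counts would be 0.167 CPM.

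At 5 d the control mice 1 to 5 had H19 at 32.5, 2.35, 697, 308.6 and 963 CPM. Jag antibody mice 6 to 10 had 3.63, 1.55, 0.369, 0.256 and 0.453 CPM. All but 1 control mouse stood above every Jag antibody mouse, and control mouse 2 lay between Jag antibody mice 7 and 6. The mean log2 CPM was 6.79 ± 3.62 (SD, n = 5) in control and -0.17 ± 1.43 (SD, n = 5) in Jag antibody mice, a difference of -6.96, which ran from -8.33 to -6.18 when any 1 mouse was left out. It was -7.75 without the 2 control libraries of low length slope.

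The muscle genes were distributed over the same 10 mice in the same way. Their summed level was 1018 to 175800 CPM in control and 0.877 to 43.9 CPM in Jag antibody mice, without overlap. Of the 5 muscle regulators, Myod1 had counts in all 5 control mice and in none of the Jag antibody mice. The sum of the 5 overlapped, at 0.0903 to 126.8 CPM in control and 0 to 0.107 CPM in Jag antibody mice. Control mouse 2 had 4 of the 5 at 0, and Jag antibody mice 6 and 7 also had 4 at 0. The muscle score (the 8 genes' log2 CPM, averaged) ran from 5.10 to 13.71 in control and from -2.69 to 2.20 in Jag antibody mice, so at 5 d the score and the antibody cannot be told apart.

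Outside 5 d, H19 was high in single mice of every group. At 15 h control mice 1 to 5 had 0.865, 0.840, 0.486, 12.6 and 128 CPM and Jag antibody mice 6 to 10 had 14.0, 15.5, 0.131, 0.715 and 8.59 CPM. At 7 d control mice had 0.160, 0.439, 0.513, 13.5 and 178 CPM, and Jag antibody mice had 823, 0, 0.184, 10.6 and 2.91 CPM. With hormone the control mice had 0.353, 8.76, 173, 1.21 and 58.7 CPM, and the Jag antibody mice 61.6, 31.4, 0.159, 1.36 and 0.330 CPM. The high and the low mice were found under both antibodies at each of these times, and the ranges overlapped in every comparison. Jag antibody mouse 6 at 7 d, at 823 CPM, was the second highest of all 40 mice.

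H19 was not called (adjusted p under 0.05, edgeR quasi-likelihood test) in any of the 8 comparisons tested. The log2 fold change of Jag antibody over control was -1.87 ± 1.96 (SE) at 15 h (adjusted p = 0.855), 2.11 ± 1.95 at 7 d (0.549) and -1.35 ± 1.92 at 7 d with hormone (0.848). The 95% interval at 7 d ran from -1.87 to 6.10, so changes of many fold in either direction were not detectable here. Without Jag antibody mouse 6 the 7 d value was -3.54, and without control mouse 5 the 15 h value was 1.08.

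**Figure D2:**
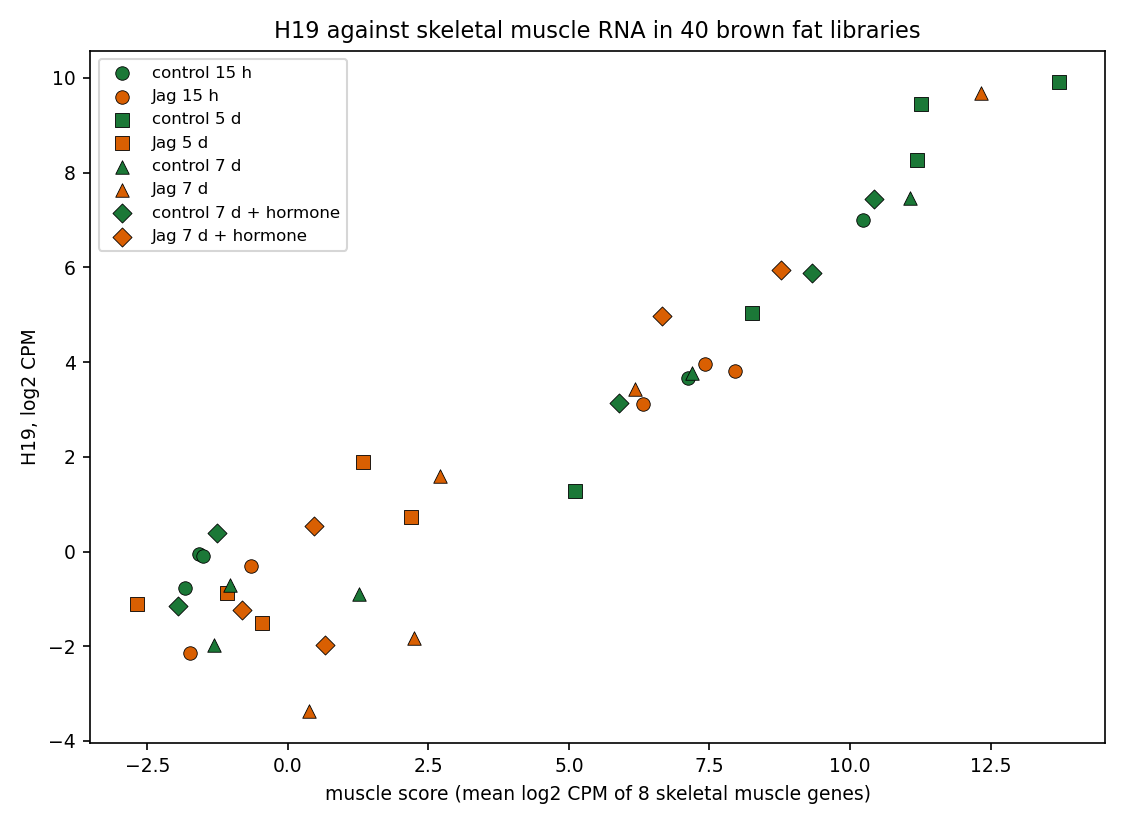
H19 as log2 CPM on the vertical axis against the muscle score (log2 CPM averaged over 8 muscle genes) on the horizontal axis, with 1 point per mouse. Green is control, orange Jag antibody, and the shape gives the time and hormone group. The 19 mice with at least 100 CPM of muscle genes lie along a rising band from both antibodies, and the 21 other mice have at most 3.63 CPM of H19.

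Across mice, H19 followed the muscle genes. In the 21 mice with under 100 CPM of summed muscle genes H19 was at 0 to 3.63 CPM with a median of 0.453 CPM. In the 4 mice between 100 and 1000 CPM it was at 8.59 to 31.4 CPM, and in the 15 mice at 1000 CPM or more it was at 2.35 to 963 CPM with a median of 61.6 CPM. Because the mice fall into a low and a high set, the correlation was taken within each. Over the 19 mice with 100 CPM or more, H19 and the muscle score had r = 0.97 and rho = 0.97 (0.96 without the 2 farthest mice), and over the 21 others r = 0.31 and rho = 0.23. These sets hold the 5 d mice, whose H19 chose the genes. Outside 5 d, the 14 mice with 100 CPM or more had H19 at 8.59 to 823 CPM with r = 0.96 and rho = 0.93 (0.93 without the 2 farthest mice). The 16 others had 0 to 2.91 CPM with r = 0.12 and rho = 0.08 (-0.17 without the 2 farthest mice), and the H19 ranges of these sets did not overlap. These are descriptions, and mice share library preparation and depth differences.

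Over the 30 mice outside 5 d, the slope of H19 within groups was 0.70 log2 units per unit of muscle score, at the 99.7th percentile of the 17079 kept genes. The other 8 members had slopes of -0.07 to 0.04. Their percentiles ran from 0.3 for Dlk1, at -0.07 near the low end of all kept genes, to 91.5 for Igf2. Igf2, the neighbour of H19, had a slope of 0.04, and over all 40 mice its r with H19 within groups was 0.34.

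The 5 genes whose log2 CPM was most like H19 over the 40 mice, among kept genes with a mean log2 CPM of at least 1, were Nrap (r = 0.963), Ckmt2 (0.963), Rpl3l (0.961), Hrc (0.959) and Pygm (0.958). Over the 30 mice outside 5 d they were Nrap (0.961), Neb (0.960), Hrc (0.957), Rpl3l (0.956) and Myot (0.954). All 7 are known striated muscle genes, among them the mitochondrial creatine kinase Ckmt2, the muscle glycogen phosphorylase Pygm and the thin filament protein nebulin (Neb). Nctc1, a noncoding RNA read from the region of the enhancers downstream of H19, had counts in all 15 mice with 1000 CPM or more of muscle genes, in 4 of 4 mice between 100 and 1000 CPM and in 4 of the 21 others, where its highest count was 3.

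Each comparison was then read for all members against the share of all tested genes that were called. Jag antibody at 15 h called 0 of 9 members (1.14% of all genes were called). At 7 d it called 2 of 9, both higher (2.5% of all genes), and at 7 d with hormone 0 of 9 (1.14%). Of all genes 1.21% were higher at 7 d and 1.29% lower. At 15 h 0.234% were higher and 0.902% lower, and with hormone 0.697% and 0.439%. Thyroid hormone called 4 of 9 members in control mice, all of them higher (43.2% of all genes were called, 20.3% higher and 22.9% lower). It called 3 of 9 in Jag antibody mice, 1 higher and 2 lower (9.5% of all genes, 4.29% higher and 5.21% lower). Between 15 h and 7 d the control mice had 2 members higher and 3 lower (45.1% of all genes, 21.6% higher and 23.5% lower). Over the same time 0 of 9 were called under the Jag antibodies (18.3%, with 10.4% higher and 7.93% lower). The antibody by hormone interaction called 0 of 9 (0.00586%, which is 1 gene). DESeq2 also called 0 members at 15 h, at 7 d with hormone and in the interaction, and it called 3 between 15 h and 7 d in Jag antibody mice. Of all 17078 genes it called 577, 449, 9 and 3880 in these comparisons, in that order. For the comparisons with 0 members called by edgeR, unadjusted p under 0.05 was met by Peg3 at 15 h (0.0105), by Igf2 (0.0303) and Meg3 (0.00976) with hormone, by Peg3 (0.0055) and Plagl1 (0.000893) in the interaction, and by H19 (0.0499), Igf2 (0.0257), Meg3 (0.0124) and Mest (0.0146) from 15 h to 7 d in Jag antibody mice. For all genes the share at unadjusted p under 0.05 was not taken. No excess among the members is therefore read from these unadjusted values. The counts of 4 and 5 members in control mice, with hormone and over time, are near the shares of all genes called there.

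**Figure D3:**
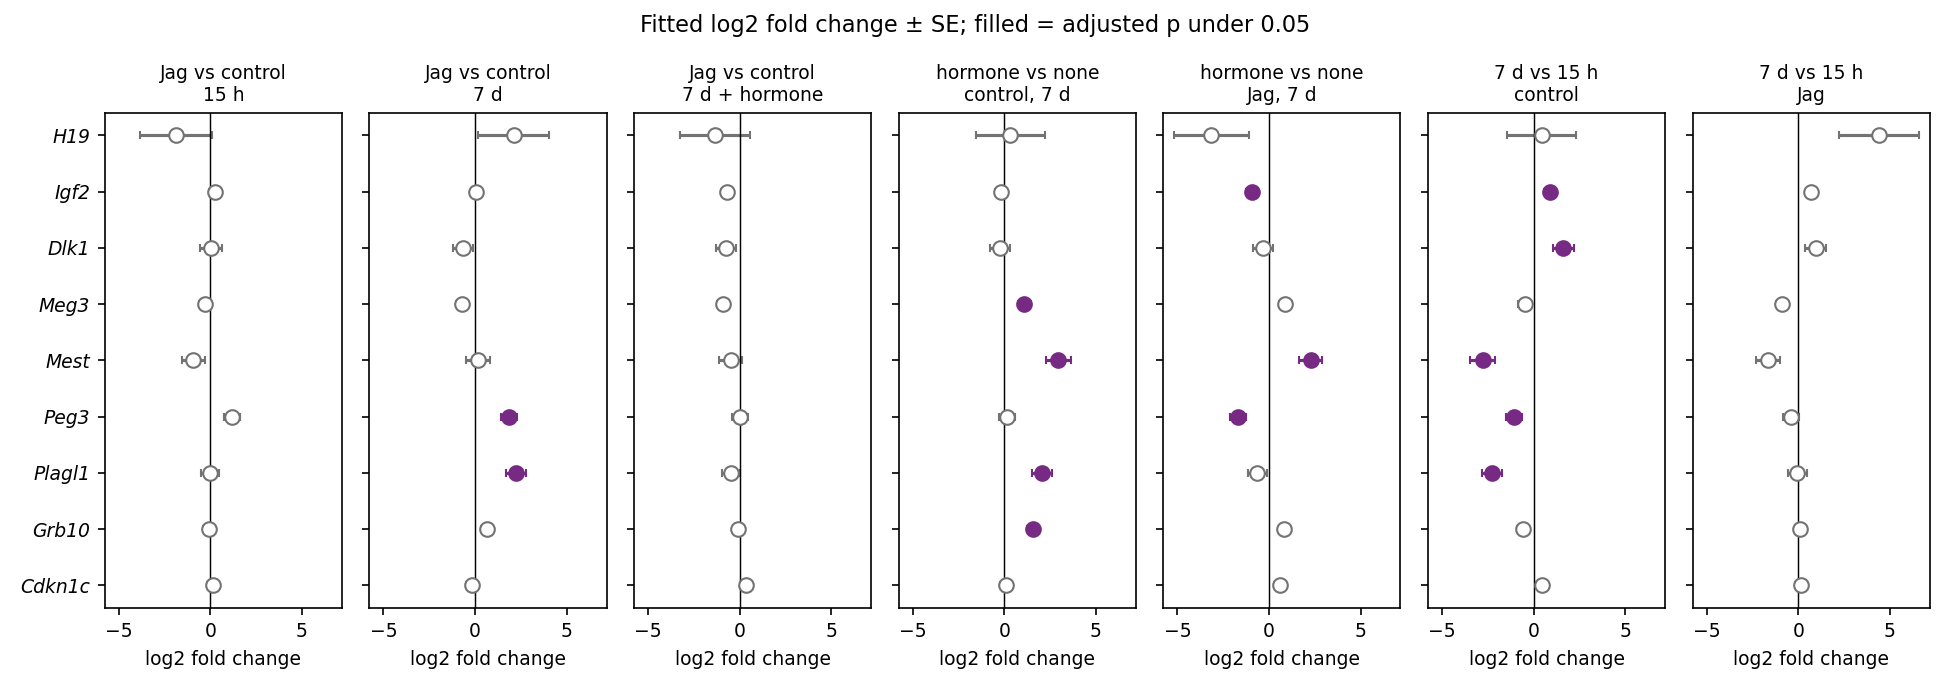
Fitted log2 fold changes of the 9 genes (horizontal axis) with their SE in the 7 comparisons of 2 groups that were tested, 5 mice per group. Filled purple points have an adjusted p under 0.05. H19 has the widest errors, 1.88 to 2.17, and is filled in none of the panels, while Mest is filled with hormone under both antibodies.

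Peg3 and Plagl1 were the members that the Jag antibodies raised at 7 d. Peg3 (ENSMUSG00000002265, chromosome 7, 6703892 to 6730431, minus strand) encodes a large zinc finger protein, and Plagl1 (ENSMUSG00000019817, chromosome 10, 13060504 to 13131694, plus strand) a zinc finger factor known to act on other genes of the imprinted network.

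Peg3 at 7 d was at 27.9, 21.6, 86.1, 17.7 and 48.9 CPM in control mice 1 to 5 and at 167, 69.7, 225, 49.4 and 214.5 CPM in Jag antibody mice 6 to 10. Above every control mouse were 3 of the 5 Jag antibody mice. The log2 fold change was 1.84 ± 0.45 (SE), a 3.58-fold higher level (edgeR adjusted p = 0.0224). At 15 h the order was the same, with 66.8 to 104 CPM in control and 117 to 298 CPM in Jag antibody mice. Those ranges did not overlap, and the log2 fold change of 1.19 ± 0.44 did not pass the test (adjusted p = 0.184). At 5 d the means differed by 0.78 and the ranges overlapped, 18.4 to 126 CPM in control and 39.2 to 136 CPM in Jag antibody mice. That difference was 0.2 without the control libraries of low length slope.

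With hormone Peg3 was at 35.5 to 65.9 CPM in control and at 32.1 to 68.7 CPM in Jag antibody mice, and the 95% interval of the log2 fold change ran from -0.89 to 0.89. Within the Jag antibody mice hormone lowered Peg3 by 1.69 ± 0.45 on the log2 scale (adjusted p = 0.0145), and all 5 mice with hormone were below 4 of the 5 mice without it. The interaction, which tests whether the antibody difference depends on hormone, was -1.84 ± 0.62 and did not pass (edgeR adjusted p = 0.374).

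Plagl1 at 7 d was at 1.44, 0.439, 0.570, 0 and 0.143 CPM in control mice 1 to 5, from 0 to 27 counts. A count of 0 in control mouse 4 allows up to 0.380 CPM. Jag antibody mice 6 to 10 were at 6.03, 1.84, 1.14, 0.966 and 2.86 CPM, and 3 of them stood above all control mice. The log2 fold change was 2.22 ± 0.55 (adjusted p = 0.0254), and the interaction with hormone was -2.70 ± 0.74 (edgeR adjusted p = 0.374). At 15 h both antibodies gave like levels, 1.95 to 4.27 CPM in control and 2.08 to 3.02 CPM in Jag antibody mice, with a 95% interval of the log2 fold change from -1.05 to 0.99.

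The calls at 7 d were at the edge of the threshold. Peg3 lost its call when control mouse 2 or 4 or Jag antibody mouse 6, 8 or 10 was left out (adjusted p 0.0559 to 0.083), and Plagl1 when control mouse 2, 4 or 5 or Jag antibody mouse 6 or 10 was left out (0.0541 to 0.13). In a fit of these 2 groups alone the adjusted p were 0.208 and 0.224. Without the 4 libraries of low length slope Peg3 was 1.42 (adjusted p = 0.188) and Plagl1 1.85 (0.12). With the length trend as an offset both stayed called, Peg3 at 1.60 (adjusted p = 0.0117) and Plagl1 at 2.14 (0.0169). Of 11 alternatives other than leaving out 1 mouse, Peg3 lost its call in 4 and Plagl1 in 5. Without the 15 libraries of over 1000 CPM of muscle genes Peg3 was 1.63 (adjusted p = 0.276) and Plagl1 1.04 (0.485). At 7 d the summed pericyte markers were also apart, 373 to 839 CPM in control and 174 to 283 CPM in Jag antibody mice, with 2 of 5 markers called lower, and their part in these differences was not tested.

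Meg3 (ENSMUSG00000021268, chromosome 12, 109541001 to 109571726, plus strand) is the maternally read RNA of the Dlk1 locus. With hormone at 7 d it was at 22.1 to 33.9 CPM in control mice and at 12.97, 13.1, 14.7, 21.97 and 12.1 CPM in Jag antibody mice 6 to 10. The ranges did not overlap, all Jag antibody mice being lower, and the log2 fold change of -0.91 ± 0.34 did not pass over all genes (adjusted p = 0.207). Without hormone at 7 d the value was -0.72 ± 0.34 (adjusted p = 0.219), with 3.04 to 21.1 CPM in control and 5.17 to 11.8 CPM in Jag antibody mice. In a fit of only the groups compared the value with hormone was called (-0.93, adjusted p = 0.0147). Without the 4 libraries of low length slope Meg3 was called lower at 7 d (-1.17, adjusted p = 0.0258) and with hormone (-0.91, 0.0314).

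Hormone raised Meg3 in control mice. Control mice 1 to 5 without hormone had 20.8, 8.25, 21.1, 3.04 and 12.9 CPM, and all were below the mice with hormone (log2 fold change 1.09 ± 0.34, adjusted p = 0.00941). Under the Jag antibodies the value was 0.90 ± 0.34 (adjusted p = 0.0833), also without overlap. There it was 0.49 (adjusted p = 0.339) with each library's length trend as an offset, and it was called with DESeq2 (0.046), with only the groups compared (0.0336) and without the low length slope libraries (0.0105). The rise in control mice was 0.42 (adjusted p = 0.318) with each library's length trend as an offset 0.61 (0.0877) without the 4 libraries of low length slope and 0.74 (0.14) without the muscle-rich libraries. Meg3 is long, with 18089 exonic bases. Between 15 h and 7 d Meg3 went from 12.8 to 18.2 CPM down to 5.17 to 11.8 CPM in Jag antibody mice, without overlap, and the value of -0.89 ± 0.34 did not pass (adjusted p = 0.0605). With the length offset it was -0.57 (adjusted p = 0.212). It was called without Jag antibody mouse 10 at 7 d (-1.07, adjusted p = 0.0446) and under 6 other alternatives, among them DESeq2 (0.0292) and the fit without the low length slope libraries (0.00902).

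Rian, the noncoding RNA downstream of Meg3 in the same cluster, was called in all 3 of the following comparisons. It fell with the Jag antibodies at 7 d by 1.09 on the log2 scale (adjusted p = 0.0201) and rose with hormone in control mice (1.16, adjusted p = 0.000622) and in Jag antibody mice (1.34, adjusted p = 0.00111). At 7 d it was at 7.0 to 17.5 CPM in control and 4.05 to 7.07 CPM in Jag antibody mice, where the highest Jag antibody mouse and the lowest control mouse overlapped. The part of the length slope in the Rian values was not tested.

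Dlk1 (ENSMUSG00000040856, chromosome 12, 109452823 to 109463336, plus strand), the paternally read partner of Meg3, was the lowest member per length. It held 1 to 93 counts per library, and 0.0430 to 3.20 CPM. The only comparison that called it was 7 d against 15 h in control mice (log2 fold change 1.63 ± 0.58, adjusted p = 0.0219), from 0.162, 0.310, 0.790, 0.683 and 0.682 CPM in mice 1 to 5 at 15 h to 0.746, 2.55, 1.54, 2.53 and 0.956 CPM at 7 d. One mouse at 7 d lay within the range at 15 h. The call was lost without control mouse 1 or 2 at 15 h or mouse 2 or 4 at 7 d (adjusted p 0.0544 to 0.0578). Without the libraries of low length slope, which include both of those 7 d mice, Dlk1 was 1.09 (adjusted p = 0.198). With the length trend as an offset it was 1.81 and stayed called (adjusted p = 0.013). The Jag antibody differences were -0.65 ± 0.55 at 7 d and -0.73 ± 0.55 with hormone, and neither passed (adjusted p = 0.512 and 0.67).

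Igf2 (ENSMUSG00000048583, chromosome 7, 142650766 to 142666816, minus strand) encodes the insulin-like growth factor that signals through Igf1r and Insr and is cleared by Igf2r. At 5 d, by description, control mice were at 15.5, 9.80, 22.7, 14.2 and 21.9 CPM and Jag antibody mice at 4.12, 4.10, 11.3, 10.3 and 8.68 CPM. Above every Jag antibody mouse were 4 of the 5 control mice. The fitted difference was -1.13. It was -0.74 with the muscle score as a covariate, and at 5 d the score cannot be told apart from the antibody.

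Igf2 was not called in the tested comparisons of the antibodies. With hormone the log2 fold change was -0.69 ± 0.31 (adjusted p = 0.347), and the 95% interval at 7 d ran from -0.55 to 0.69. Hormone lowered Igf2 in Jag antibody mice, from 11.7, 8.74, 11.2, 11.03 and 9.74 CPM in mice 6 to 10 without it to 7.08, 5.22, 6.92, 3.22 and 4.62 CPM with it. The ranges did not overlap and the log2 fold change was -0.95 ± 0.31 (adjusted p = 0.043). The call was lost when any of the 5 mice without hormone, or mouse 7, 9 or 10 with hormone, was left out (adjusted p 0.0596 to 0.121). In control mice hormone gave a 95% interval of -0.81 to 0.43, and the interaction of -0.76 ± 0.43 did not pass (adjusted p = 0.448).

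Over time in control mice Igf2 rose from 2.08 to 7.62 CPM at 15 h to 6.58 to 13 CPM at 7 d (0.89 ± 0.31, adjusted p = 0.0176). The adjusted p was 0.0676 without control mouse 2 at 15 h and 0.0513 without mouse 5 at 7 d. Under the Jag antibodies it was 0.71 ± 0.31 (adjusted p = 0.0962), with no overlap between 3.99 to 8.26 and 8.74 to 11.7 CPM.

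Among 22 genes of the IGF axis, 17 were tested. The strongest changes with the Jag antibodies were in a binding protein and an adaptor. Igfbp3, which carries IGFs outside the cell, was higher at 7 d by 2.17 ± 0.30 (adjusted p = 5.95e-05) and at 7 d with hormone by 2.15 ± 0.30 (7.23e-05), without overlap at either. Control mice at 7 d were at 5.97, 11.6, 15.2, 16.8 and 15.2 CPM and Jag antibody mice at 109, 44.1, 43.8, 54.7 and 38.2 CPM. At 5 d, by description, 13.9 to 31.8 CPM in control mice stood against 22.8 to 45.6 CPM. Grb14, an adaptor of the Grb10 family that also binds the insulin receptor, was lower at 7 d by 1.47 on the log2 scale (adjusted p = 0.000342), from 33.6 to 96.2 CPM in control to 17.6 to 32.4 CPM in Jag antibody mice, again without overlap.

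With the Jag antibodies no other IGF axis gene was called. The count was 1 higher and 1 lower of 17 at 7 d (2.5% of all genes were called), 1 higher and 0 lower with hormone (1.14%) and 0 of 17 at 15 h (1.14%). Hormone in control mice called 8 of 17 higher and 0 lower (20.3% of all genes higher, 22.9% lower), with a median log2 fold change of 0.66 against 0.04 over all tested genes. Pappa, a protease that frees IGFs from binding proteins, rose by 1.93 (adjusted p = 0.00766), Igfbp5 by 1.36 (0.00203), the clearance receptor Igf2r by 1.32 (7.33e-05) and the RNA-binding protein Igf2bp2 by 1.30 (0.00341). The length slope also differed between mice without and with hormone, without overlap under either antibody. Its part in the IGF axis values was not tested. Under the Jag antibodies 4 of 17 rose and 1 fell (4.29% of all genes higher, 5.21% lower). Pappa rose by 2.28 (adjusted p = 0.00893), Htra1, a secreted protease that can cleave IGF-binding proteins, by 1.02 (0.000216), Igf2r by 0.78 (0.0299) and Grb14 by 0.74 (0.0363), while Igfals, a subunit of the circulating IGF complex, fell by 2.25 (0.00808).

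Grb10 (ENSMUSG00000020176, chromosome 11, 11930508 to 12038683, minus strand) is an adaptor that restrains insulin and IGF receptor signalling. Hormone raised it in control mice from 13.3, 7.55, 21.2, 8.86 and 16.5 CPM in mice 1 to 5 to 27.6, 42.01, 52.4, 29.4 and 46.96 CPM. Every mouse with hormone was above every mouse without it, and the log2 fold change was 1.55 ± 0.30 (adjusted p = 0.00014), a 2.93-fold higher level. With the length trend as an offset it was 1.14 (adjusted p = 0.000791).

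In Jag antibody mice Grb10 was at 40.2, 14.4, 16.3, 9.79 and 24.1 CPM without hormone and at 37.5, 36.2, 35.0, 45.7 and 30.1 CPM with it. Mouse 6 without hormone, the mouse with 51010 CPM of muscle genes, was as high as the hormone group. The log2 fold change was 0.82 ± 0.29 (adjusted p = 0.0675), and it was 1.19 (adjusted p = 0.00653) without that mouse and 0.92 (0.0339) with the muscle score as a covariate. With the length trend as an offset it was 0.61 (adjusted p = 0.108). The Jag antibodies themselves gave 0.63 ± 0.29 at 7 d (adjusted p = 0.216).

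Mest (ENSMUSG00000051855, chromosome 6, 30723547 to 30748465, plus strand) encodes a hydrolase of the endoplasmic reticulum known to rise when white fat expands. It was the member with the largest called change, and hormone raised it under both antibodies. Control mice 1 to 5 went from 0.693, 0.790, 0.626, 1.90 and 0.765 CPM to 3.73, 3.36, 10.3, 8.95 and 9.01 CPM with hormone, without overlap (2.95 ± 0.68, a 7.70-fold higher level, adjusted p = 0.000878). Jag antibody mice 6 to 10 went from 0.689, 1.502, 1.29, 0.483 and 1.16 CPM to 2.29, 8.54, 3.65, 8.50 and 1.98 CPM, also without overlap (2.27 ± 0.65, adjusted p = 0.0234).

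The rise in Jag antibody mice lost its call without mouse 9 at 7 d or mouse 7 or 9 with hormone (adjusted p 0.0636 to 0.0676), and the rise in control mice kept it whichever mouse was left out. Mest shares 23.1% of its exonic length with Copg2 on the opposite strand. Copg2 held 37618 counts over the 40 libraries against 3153 for Mest, and whether counting used the strand is not given in the sources used here. Copg2 was at 34.1 to 66.6 CPM in control mice without and 37.7 to 49.9 CPM with hormone, and its range with hormone lay within that without it.

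Over time in control mice Mest fell, from 1.51, 12.2, 11.4, 2.11 and 4.15 CPM in mice 1 to 5 at 15 h to the 7 d values above (-2.77 ± 0.68, adjusted p = 0.00131). The high values at 15 h were those of control mice 2 and 3. The same mice had macrophage markers at 2898 and 2451 CPM in sum against 281 to 677 CPM in the other 3, and brown adipocyte markers at 8218 and 13220 CPM against 16410 to 23730 CPM. Jag antibody mouse 8, at 8.45 CPM of Mest, was the highest of its group at 15 h, with macrophage markers at 359.7 CPM. The part of these markers in the Mest values was not tested. Under the Jag antibodies Mest was -1.66 ± 0.65 over this time (adjusted p = 0.0672), and it was called without mouse 9 at 15 h (-1.91, 0.0363).

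Over the same interval in control mice Plagl1 fell by 2.29 on the log2 scale (adjusted p = 0.00112), from 1.95 to 4.27 CPM to 0 to 1.44 CPM without overlap, and Peg3 fell by 1.07 (adjusted p = 0.046). The call of Peg3 was lost on leaving out any 1 of the 10 mice but control mouse 3 at 7 d (adjusted p 0.0535 to 0.144). With the length trend as an offset Peg3 was -0.61 (adjusted p = 0.167) and Plagl1 -2.06 (0.00156). Without the muscle-rich libraries Plagl1 was -1.26 and lost its call (adjusted p = 0.0531). Grb10 was -0.60 ± 0.29 (adjusted p = 0.0913) and was called only without control mouse 3 at 7 d among the mice left out (0.0352).

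With hormone Plagl1 in control mice was higher than without it, at 1.36, 3.16, 3.24, 1.45 and 2.35 CPM in mice 1 to 5. The log2 fold change was 2.06 ± 0.55 (adjusted p = 0.00299), with overlap only between control mouse 1 without hormone, at 1.44 CPM, and mouse 1 with it. Without the muscle-rich libraries it was 1.27 (adjusted p = 0.0726), and with the length trend as an offset 1.77 (0.00642).

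Several members followed the length slope of the library. Over 40 mice the correlation of log2 CPM with the slope was r = 0.72 for Plagl1 (rho = 0.62, 0.56 without the 2 farthest mice), 0.67 for Grb10 (rho = 0.62, then 0.68), 0.47 for Mest (rho = 0.57, then 0.51), 0.46 for Peg3 (rho = 0.32, then 0.35) and 0.46 for Meg3 (rho = 0.38, then 0.22). As deviations from the group means r was 0.70 for Plagl1, 0.70 for Peg3, 0.62 for Grb10, 0.42 for Meg3 and 0.08 for Mest. Without the 2 farthest mice these were 0.56, 0.70, 0.64, 0.09 and 0.11, so the value of Meg3 rests on those 2 mice. Mest therefore followed the slope between groups and hardly within them, and Peg3 more within groups than across them. Of the 4 members called with hormone in control mice, Mest, Grb10 and Plagl1 were also called with the length trend as an offset, and Meg3 was not.

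**Figure D4:**
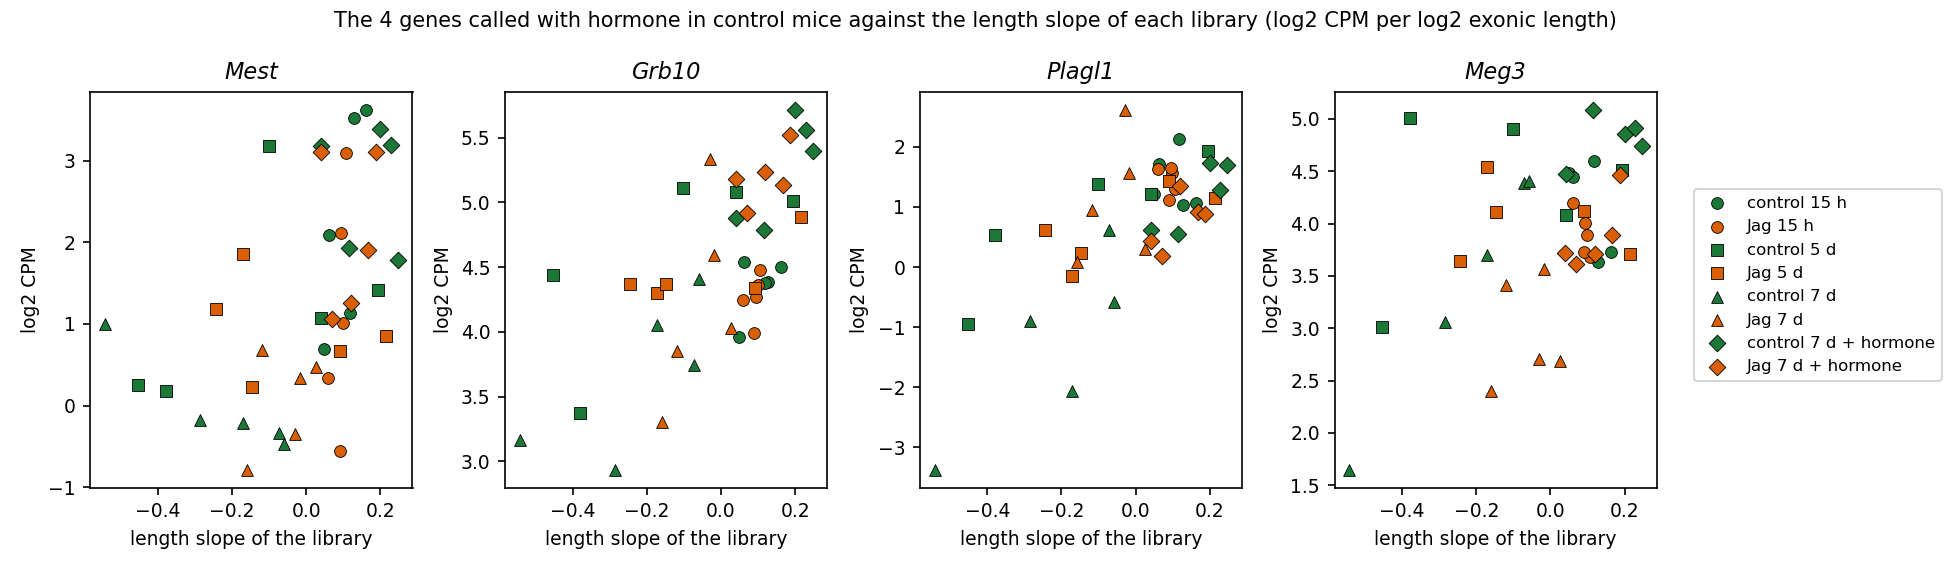
Mest, Grb10, Plagl1 and Meg3 as log2 CPM (vertical axes) against the length slope of each library (horizontal axes), with 1 point per mouse, green for control and orange for Jag antibody. The control mice at 7 d (green triangles) lie between -0.542 and -0.059 and the control mice with hormone (green diamonds) between 0.041 and 0.247.

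Other lists moved with hormone beside these genes. The 5 proliferation markers were called higher under both antibodies, from 2.87 to 6.66 CPM in sum to 59.2 to 134 CPM in control mice and from 2.17 to 9.51 to 12.6 to 67.9 CPM in Jag antibody mice. In control mice all 4 macrophage markers (107 to 256 CPM without, 538 to 1084 CPM with hormone) and 4 of 7 progenitor and fibroblast markers (679 to 1161 CPM against 2198 to 4392 CPM) were called higher, and 4 of 6 brown adipocyte markers lower (32380 to 69180 CPM against 10550 to 16930 CPM). Of all genes, hormone called 20.3% higher and 22.9% lower in control mice and 4.29% higher in Jag antibody mice. No marker of these lists was at 0 in any of these mice other than proliferation markers. Their part in the changes of Mest, Grb10, Plagl1 and Meg3 was not tested.

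Cdkn1c (ENSMUSG00000037664, chromosome 7, 143458339 to 143461050, minus strand), the p57 inhibitor of cyclin-dependent kinases, was called in no comparison. It was the steadiest member, at 1.90 to 26.6 CPM with an SD of 0.60 log2 units. Control mice 1 to 5 at 15 h were at 12.8, 1.90, 4.26, 13.1 and 11.02 CPM, the low values being those of mice 2 and 3, where Mest was high. At 5 d, by description, 9.28 to 13.3 CPM in control stood against 10.6 to 14.7 CPM in Jag antibody mice. The largest tested difference was with hormone in Jag antibody mice, 0.59 ± 0.32 (adjusted p = 0.223). The proliferation markers rose in that comparison, and the 95% interval of Cdkn1c there was -0.05 to 1.23.

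Within groups the members formed no single block. Over deviations from the group means in 40 mice, the closest pairs were Peg3 with Grb10 (r = 0.69, rho = 0.65, 0.66 without the 2 farthest mice), Meg3 with Plagl1 (r = 0.60, rho = 0.40, then 0.33) and Plagl1 with Grb10 (r = 0.55, rho = 0.61, then 0.55). The neighbours H19 and Igf2 had r = 0.34 and Dlk1 and Meg3 r = -0.13. Within groups Peg3, Plagl1 and Grb10 also followed the length slope at the values given above.

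Of 61 further imprinted genes 47 were tested. The Jag antibodies called 0 of 47 at 15 h and 0 with hormone (1.14% of all genes at either), and at 7 d 1 higher and 3 lower (1.21% of all genes higher, 1.29% lower). Mkrn3 was higher by 1.67 (adjusted p = 0.0448), and Ndn, Rian and Snrpn were lower by 1.24 (0.0105), 1.09 (0.0201) and 0.92 (0.0365) on the log2 scale. Mkrn3, Ndn and Snrpn lie in the Prader-Willi region of mouse chromosome 7. Snrpn was at 21.9 to 34.1 CPM in control and 11.5 to 18.9 CPM in Jag antibody mice, and Ndn at 30.4 to 60.5 against 10.3 to 27.0 CPM, both without overlap.

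Hormone in control mice called 10 of 47 higher and 8 lower, which is no more than the share of all genes (43.2% called, 20.3% higher and 22.9% lower). Dio3, the deiodinase that inactivates thyroid hormone, was higher by 3.72 (adjusted p = 0.00722) at no more than 0.961 CPM in any of these mice. The cation transporter Slc22a2 fell by 2.98 on the log2 scale (2.42e-06), Commd1 by 1.86 (9.12e-05), and Tspan32, a tetraspanin, rose by 2.00 (0.0111). Under the Jag antibodies 4 were called higher and 4 lower (4.29% and 5.21% of all genes), Magel2 rising by 3.97 (adjusted p = 0.0121) at no more than 1.10 CPM, Slc22a2 falling by 2.01 (0.000856), Rian rising by 1.34 (0.00111) and Ndn by 0.91 (0.0288). The medians over the 47 genes were 0.13 and -0.06, against 0.04 and -0.04 over all tested genes. The part of the length slope in these values was not tested.

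From 15 h to 7 d 10 were called higher and 12 lower in control mice, and 5 higher and 3 lower in Jag antibody mice. These counts are near the shares of all genes called, 45.1% and 18.3%. In control mice the largest were Nnat (-2.01, adjusted p = 0.0211), Mkrn3 (-1.93, 0.00111), Kcnq1ot1 (-1.88, 0.000379) and Slc22a2 (1.81, 0.000287). Kcnq1ot1 is the noncoding RNA of the domain that also holds Cdkn1c, and Cdkn1c was 0.46 ± 0.32 in that comparison (adjusted p = 0.242). Under the Jag antibodies the largest were Slc22a18 (1.80, 0.0227), Rian (-1.59, 0.000198), H13 (1.13, 0.00043) and Slc22a2 (1.05, 0.0443). The length slope also differed between these times, without overlap under either antibody. In control mice it was 0.049 to 0.162 at 15 h and -0.542 to -0.059 at 7 d. In Jag antibody mice it was 0.06 to 0.106 at 15 h and -0.159 to 0.026 at 7 d. Its part in the values of these further imprinted genes was not tested.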

How the data were processed

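The authors deposited raw counts per Ensembl gene and, over the same genes and mice, FPKM values. Per the submitters' processing notes GSNAP and limma were used; versions, the genome build, the annotation and the strand setting are not given in the sources used here, and in the labels reads are single-end. Each deposited FPKM equals the count divided by a median-of-ratios factor and a gene length, which was proportional to the genomic span within 1% for 84.8% of 14290 genes.

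Counts were tested with edgeR 4.0.16 (R 4.3.3): filterByExpr, TMM, a robust quasi-likelihood fit in 1 model over 40 mice with a mean per group, and Benjamini-Hochberg adjustment over 17079 genes at 0.05. The p-values measure the spread between these mice. Log2 CPM has a prior count of 2. Exonic lengths and coordinates came from GENCODE M21. Length slopes used 12127 genes. Mouse numbers 1 to 5 and 6 to 10 recur at each time, in different animals. Limits for a count of 0 use 3 counts and cover counting error only.

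The members and lists were chosen with earlier results of these data known. Named genes are the 9 members, at most 4 called genes per list and comparison by size, and the 5 genes most like H19. The antibody comparison at 5 d was not tested. Alternatives were DESeq2 1.42.0, RLE factors, no filter, fewer groups, covariates, offsets, limma 3.58.1 on log2(FPKM + 1) or log2(FPKM + 0.1), mouse number as a block, and each mouse left out in turn; 2 that leave out libraries were chosen after seeing the data. The methods were tested on simulated counts.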

Additional observations from a re-analysis of the deposited data

Results flagged for a closer look

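Of 72 groups of 5 mice (9 genes in 8 groups), 3 held a mouse set far apart from the other 4 of its group, a gap of more than 0.71 of the group's range. Chance gives about 1 in 20 groups. Mest in control mouse 4 at 7 d was highest at a log2 CPM of 1.00, the next mouse being at -0.17, and that library had the lowest length slope of all at -0.542. Grb10 in control mouse 1 at 15 h was lowest at 3.96, the next being at 4.38. Grb10 in Jag antibody mouse 8 at 5 d was highest at 4.89, the next being at 4.37, and that library had the highest length slope of its group at 0.215.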

How the results depend on the processing

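Depth limits Dlk1 and Plagl1 most, at 1 to 93 and 0 to 140 counts per library, and the spread of H19 between mice limits every H19 value; small changes were not detectable. Among the values of single members, 514 kept direction and side of the threshold under the other alternatives, 31 lost and 25 gained a call and 13 changed sign; with 1 mouse left out these were 479, 36, 4 and 11. Changes in members below their SE were not followed, other than those of H19, which was followed in every comparison. Except where a value here shows it, the cause was not tested.

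Members called at 7 d with the Jag antibodies (2) were 1 without a filter and 0 with only the groups compared. They were 1 with limma on log2(FPKM + 1) and 1 on log2(FPKM + 0.1). Without the low length slope libraries they were 1, and without the muscle-rich ones 0. All genes called were 191 of 33357 without a filter, then 35, 546, 531, 112 and 41 of 17079 in that order. At 7 d with hormone (0) members called were 1 with only the groups compared, with limma on log2(FPKM + 1) and without the low length slope libraries. There 662, 505 and 390 of all genes were called. For hormone in control mice (4) members called were 2 without the muscle-rich libraries (3177 of all genes). For hormone in Jag antibody mice (3) they were 5 with DESeq2 (2231 of all genes) and 5 without the low length slope libraries (3014). Over time in control mice (5) they were 3 without the low length slope libraries (5900 of all genes) and 3 without the muscle-rich ones (5680). Over time in Jag antibody mice (0) they were 3 with DESeq2 (3880 of all genes) and 1 with RLE factors (3095). They were 2 with only the groups compared (4249), 1 without the 5 d groups (4309) and 1 without the low length slope libraries (4794).

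H19 changed sign with the muscle covariate for hormone in Jag antibody mice (0.28) and over time in control mice (-1.06), where it was also -0.29 with limma on log2(FPKM + 0.1); at 5 d it was 0.15, where the score does not overlap between the antibodies and the covariate cannot be told apart from them. Without the low length slope libraries it was -0.33 for hormone in control mice. Without the muscle-rich libraries it was 2.13 at 15 h, 1.33 at 7 d with hormone, 1.37 for hormone in Jag antibody mice and -0.98 over time in control mice. Meg3 over time in control mice was 0.04 with the length offset, 0.01 without the low length slope libraries and 0.10 without the muscle-rich ones.

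With 1 mouse left out, H19 ran from -2.27 to 1.08 at 15 h, from -3.54 to 5.62 at 7 d and from -2.54 to 0.12 at 7 d with hormone. It ran from -1.17 to 3.8 for hormone in control mice, from -4.33 to 2.51 in Jag antibody mice, from -6.93 to 2.18 in the interaction, from -3.04 to 3.39 over time in control mice, from -1.23 to 4.86 in Jag antibody mice and from -8.33 to -6.18 at 5 d. Members called ran from 0 to 2 at 7 d, 4 to 4 for hormone in control mice and 1 to 3 in Jag antibody mice. Over time they ran from 2 to 6 in control mice and 0 to 1 in Jag antibody mice. They were 0 elsewhere, and all-gene counts are not given.

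Mouse numbers shared no animal. Same-numbered mice had r from -0.399 to 0.744 over 20 pairs, 12 of them over 0.1, and 7 of 20 mice correlated best with their own number. With the replicate block, members called were 4 for hormone in control mice, 3 in Jag antibody mice, 0 in the interaction, 4 over time in control mice and 2 in Jag antibody mice. With the block and the length offset they were 3, 3, 0, 2 and 1. Plagl1 over time in control mice then lost its call (-2.31, adjusted p = 0.0538). H19 over time in control mice was -0.30 with the block and -0.54 with both. No paired analysis was possible for the antibody comparisons because those groups share no number.

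Over all genes, calls at 15 h (194) were 577 with DESeq2, 26 without a filter, 0 with only the groups compared, 27 without the 5 d groups, 118 with the muscle covariate, 26 and 21 with limma and 0 without the muscle-rich libraries. At 7 d (427) they were 858 with DESeq2, 191 without a filter, 35 with only the groups compared, 1254 without the 5 d groups, 112 without the low length slope libraries and 41 without the muscle-rich ones. At 7 d with hormone (194) these were 449, 117 and 662 for the first 3 settings, 505 and 415 with limma, 390 and 22 without the library sets. Hormone in Jag antibody mice (1622) gave 990 without a filter, 2663 with only the groups compared and 2658 without the 5 d groups. Over time, Jag antibody mice (3126) gave 2057 without a filter. The interaction (1) gave 9 with DESeq2, 36 and 28 with limma, and 0 without a filter, with only the groups compared, with the covariate, offset or block, and without either set of libraries.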
